A study of Homo sapiens with 2 samples.

Results

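The S100 genes examined here were S100A2, S100A4, S100A6, S100A8, S100A9, S100A10, S100A11, S100A13, S100A14 and S100A16, which encode small calcium-binding proteins. They were chosen by name, with earlier results of these libraries known, S100A13 in particular. All 10 were found, among 13017 genes listed for both libraries. Another 7 genes of the family were listed as well and are given beside them.

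The 2 RNA libraries came from breast cancer cells of the line labelled 468, of epithelioid morphology, grown in L15 medium with serum. In one group, labelled THAP7-AS1 knockdown, the antisense RNA THAP7-AS1 was targeted for 48 h with a Smart Silencer (a mix of oligonucleotides sold for silencing RNAs). The other group, labelled si-NC control and written si-NC below, was given a negative control. The treatment field names the silencer for both samples, so the groups follow the genotype field. There was 1 library per group, and no difference below has a replicate check or a test.

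S100 proteins carry a pair of calcium-binding folds called EF-hands and usually work as dimers. Calcium opens a surface through which most of them bind target proteins. Some are also released from cells and act on receptors such as RAGE (AGER) and TLR4. Most of the genes lie side by side in the epidermal differentiation region of chromosome 1, where many neighbours serve the skin barrier. In breast and other epithelia, S100A7, S100A8 and S100A9 are known as genes of stressed or inflamed cells, whereas S100A6, S100A10 and S100A11 are expressed widely.

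The calcium loop of the second EF-hand, a loop of the kind that EF-hand proteins in general carry, is shown here for the members in which it was found, as the site through which calcium acts on them. A script looked in the coding sequence of one principal GENCODE 29 transcript per gene for codons of a 12-residue loop with aspartate at residues 1 and 5, aspartate, asparagine or serine at residue 3, and glutamate at residue 12. The capitals mark those 4 codons, all in coding exons. The loop was found in 8 of the 10 members and in 15 of the 17 listed S100 genes.
S100A13, codons 64 to 75: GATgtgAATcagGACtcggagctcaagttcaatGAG
S100A16, codons 67 to 78: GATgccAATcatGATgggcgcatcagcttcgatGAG
S100A11, codons 68 to 79: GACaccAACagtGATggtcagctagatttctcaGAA
S100A9, codons 67 to 78: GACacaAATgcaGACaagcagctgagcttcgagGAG
S100A8, codons 59 to 70: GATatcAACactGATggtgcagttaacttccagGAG
S100A6, codons 61 to 72: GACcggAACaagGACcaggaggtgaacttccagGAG
S100A4, codons 63 to 74: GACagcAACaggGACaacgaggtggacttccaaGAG
S100A2, codons 63 to 74: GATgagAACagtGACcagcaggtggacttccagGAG
The members without a match were S100A10, known for binding its partner without calcium, and S100A14. Coding sequences of the members ran from 273 bases in S100A6 to 345 bases in S100A9. S100A13 shared 68.0% of aligned coding bases with S100A14, its closest match among the measured S100 genes, and 56.0% with S100A11, the most distant.

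The values are FPKM, fragments scaled by gene length and by the fragments of the library, so levels may be compared between genes within a library. A log2 ratio below is log2 of (knockdown FPKM + 1) over (control FPKM + 1); it understates differences of low genes. In place of a test, a gene was called when it was at least 2-fold apart on that scale and averaged 1 FPKM or more over both libraries, a limit that all 10 members passed. By that rule 0.604% of 10925 genes were called higher in the knockdown library and 0.668% lower. Of the 10 members, 1 was called higher (S100A13) and 0 lower; as S100A13 was known to differ when the members were chosen, nothing is read from this count. The median log2 ratio of the members was -0.09, against 0.02 for all genes kept, with 4 members above 0 and 6 below. Of all 10925 genes kept, 5806 were above 0 and 5119 below.

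FPKM sums were 213442 after knockdown and 213888 with si-NC, but FPKM are scaled by library size and cannot compare it. About 11100000 and 10900000 fragments were estimated from values assumed to be those of 1 fragment. The same narrow window of values was used for both libraries. That window largely fixes the estimates and keeps them close, so neither the depth nor similar size was tested. All 10 epithelial markers looked for were listed, KRT19 at 1106 and 1057 FPKM and EPCAM at 232 and 224 FPKM among them, knockdown first. Their log2 ratios, as defined above, ran from -0.43 to 0.71, with 8 above 0 and 2 below. The highest was that of KRT14, at 5.94 and 3.25 FPKM. The 2 below 0 were CDH1, at 12.4 and 17.1 FPKM (-0.43), and EGFR, at 258 and 336 FPKM (-0.38). Of 16 markers of myeloid, lymphoid, endothelial and fibroblast cells, 6 were listed, summing to 16.2 and 15.5 FPKM, with CD14 the highest at 10.3 and 9.50 FPKM and PDGFRB listed at 0 in the control library. THAP7-AS1 is not analysed here, so the knockdown itself was not checked; THAP7, which overlaps it on the other strand, was at 8.38 FPKM after knockdown and 2.71 FPKM with si-NC. In bulk RNA, fewer cells expressing a gene and less RNA per cell cannot be told apart.

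**Figure D1:**
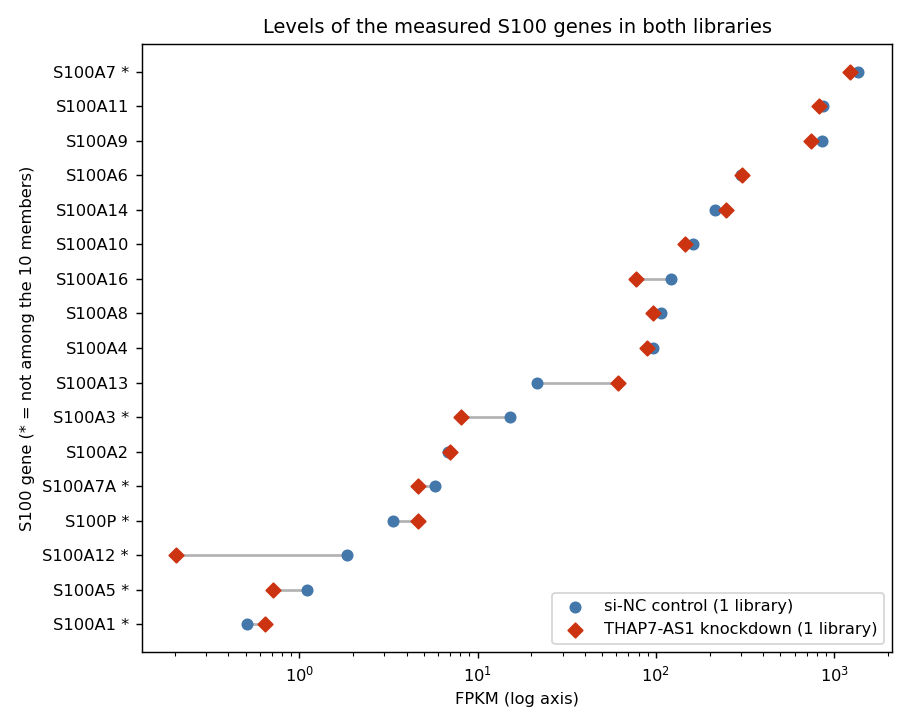
FPKM on a log axis of the 17 listed S100 genes, with a circle for the si-NC control library and a diamond for the THAP7-AS1 knockdown library (1 library each, no error bars); the asterisk marks genes outside the 10 members. Most pairs lie close together, while S100A13 stands at 61.2 FPKM after knockdown and 21.4 FPKM with si-NC, and S100A16, S100A3 and S100A12 lie lower in the knockdown library.

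S100A13 takes part in the release of FGF1 and interleukin-1 alpha, proteins that leave the cell without a signal peptide. It was at 61.2 FPKM after knockdown and 21.4 FPKM with si-NC, a log2 ratio of 1.47, or 2.77-fold on the FPKM + 1 scale. The knockdown library was thus the high one, by 39.8 FPKM. Among all listed genes S100A13 was 513th by level after knockdown and 1913th with si-NC. Its ratio was the 21st highest of 10925. Of 1685 genes with a mean between 20.6 and 82.6 FPKM, a window around its own mean of 41.3 FPKM, 8 were called higher and 8 lower. Only 2 of the 1685 had a ratio at or above that of S100A13, itself included. The other was TOMM6, a subunit of the mitochondrial import complex, named after its value was seen. As S100A13 was chosen with its difference in these libraries known, these ranks describe it and are no support.

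By that rough estimate of fragments, the depth behind S100A13 is moderate. With its 686-base principal transcript, the FPKM values correspond to about 467 fragments after knockdown and 161 with si-NC. The counting error of the plain log2 ratio would then be about 0.13, a figure that covers counting only. The spread of log2 ratios across genes averaging 20 to 100 FPKM, as an SD from the median absolute deviation, was 0.18.

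Part of the S100A13 signal can come from other transcripts. Of its 2216 annotated exon bases, 24.2% are shared with AL162258.1, a processed transcript on the same strand, which is not analysed here. Another 10.6% lie across from exons of S100A1 on the opposite strand, and whether the libraries keep strand is not given in the sources used here. S100A1 itself was at 0.642 FPKM after knockdown and 0.509 FPKM with si-NC. The part of AL162258.1 in the S100A13 values was not tested.

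S100A13 was set beside its paralogs, as neighbours on chromosome 1 and as family members. On one side lies S100A14, a member found mainly in epithelia, at 247 FPKM after knockdown and 216 FPKM with si-NC, a log2 ratio of 0.19. Beyond it lies S100A16, a widely expressed member, at 76.9 FPKM after knockdown and 122 FPKM with si-NC. Its log2 ratio was -0.66, the lowest of the 10 members. These neighbours thus lay on opposite sides of 0, and S100A16 and S100A13 differed from each other by 2.13 on the log2 scale. The level of S100A13 was 0.175 of that of S100A16 in the control library and 0.795 of it in the knockdown library.

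S100A16 was lower by 45.3 FPKM after knockdown. GENCODE 29 gives S100A16 and S100A13 no shared exon base, and none of the 50-base words of S100A16 transcripts occurred in another annotated gene. S100A16 had the 216th lowest ratio of 10925 genes and was 1.58-fold lower, short of the limit of 2. By the same rough estimate about 819 and 1279 fragments stand behind S100A16, with an estimated counting error of 0.065.

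The difference between the ratio of S100A13 and that of each of the other 16 listed S100 genes was above 0 in every case. S100A13 was known to differ when it was chosen, so nothing is read from this count. The difference ranged from 1.11 on the log2 scale against S100P to 2.71 against S100A12. Against S100A14, the closest in coding sequence, it was 1.28, and against S100A11, the most distant, 1.56. Against S100A1, across the other end of the gene, it was 1.35. No test of these differences was possible with 1 library per group.

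**Figure D2:**
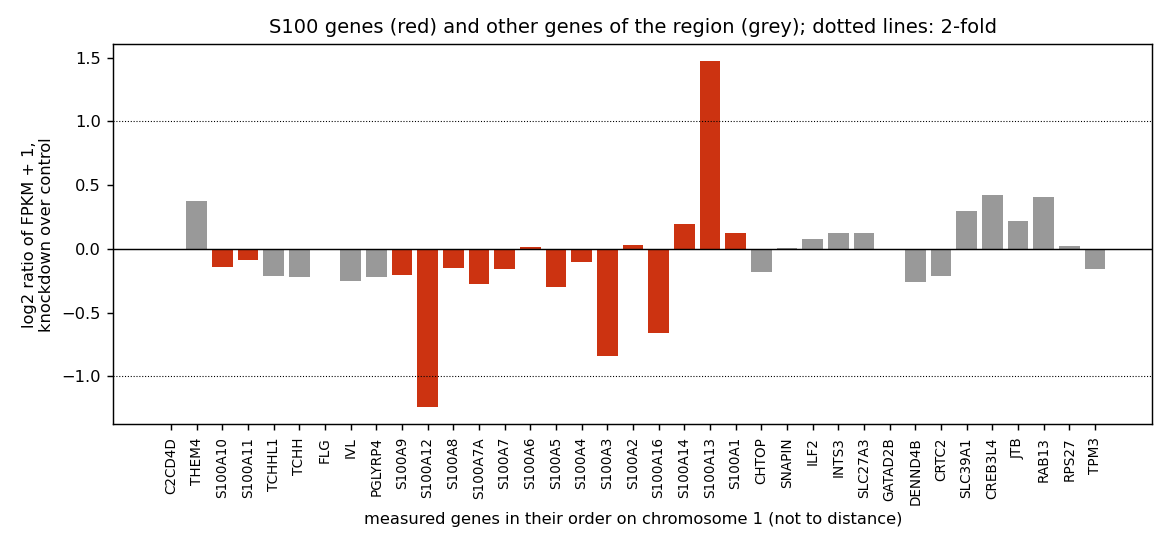
Bars give the log2 ratio of FPKM + 1, knockdown over control, of 37 measured genes of the region in their order on chromosome 1 by GENCODE 29, spaced evenly and not by distance, with S100 genes in red, other genes in grey and dotted lines at 2-fold. S100A13 stands above the upper line at 1.47, its neighbours S100A14 and S100A1 are at 0.19 and 0.12, and the grey genes lie between -0.26 and 0.43.

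The flanking genes of the region were read beside the S100 genes. Of 16 kept flanking genes, 10 were above 0 and 6 below, and their median was 0.05. In either direction 0 were called, which at 0.604% higher and 0.668% lower over all genes is the background outcome for so few genes. The next genes past S100A13 and S100A1 were CHTOP, a chromatin and mRNA export factor, at 11.2 and 12.8 FPKM (knockdown first), SNAPIN at 16.3 and 16.2 FPKM, and ILF2, an RNA-binding protein, at 163 and 155 FPKM. Farther along, CREB3L4 had the highest ratio of this list, 0.43, with 6.01 and 4.22 FPKM, followed by RAB13, a small GTPase of cell junctions, with 65.8 and 49.5 FPKM. DENND4B had the lowest, -0.26, with 4.37 and 5.43 FPKM. The log2 ratios of the remaining flanking genes were 0.37 for THEM4, 0.30 for SLC39A1, 0.22 for JTB, 0.13 for SLC27A3, 0.12 for INTS3, 0.02 for RPS27, -0.16 for TPM3 and -0.21 for CRTC2. That of GATAD2B was within 0.01 of 0, and C2CD4D, below the filter, was at 0.596 and 0.594 FPKM.

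S100A8 and S100A9 form calprotectin, which binds zinc and manganese and signals through TLR4 and RAGE when released. S100A9 was at 738 FPKM after knockdown and 851 FPKM with si-NC, a log2 ratio of -0.21. S100A8 was at 96.0 and 106 FPKM, with a log2 ratio of -0.15. Both were lower in the knockdown library by similar proportions, so that S100A9 stood at 7.69 times the level of S100A8 in one library and 7.99 times in the other. Of their receptors, AGER was at 1.14 FPKM after knockdown and 0.624 FPKM with si-NC. TLR4 was at 0.035 FPKM in the knockdown library and listed at 0 in the control library.

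Neighbours of this pair on chromosome 1 outside the 10 were S100A7, S100A7A and S100A12. S100A7, psoriasin, was the highest S100 gene in both libraries, at 1225 FPKM after knockdown and 1366 FPKM with si-NC. It shares 14.2% of its 50-base words with S100A7A, and S100A7A shares 1.57% of its own with S100A7. Their values are thus uncertain, most of all that of the far lower S100A7A. S100A7A itself was at 4.62 and 5.80 FPKM, log2 ratio -0.27. S100A12, a calgranulin best known from neutrophils, was at 0.203 FPKM after knockdown and 1.85 FPKM with si-NC and was the 1 S100 gene called lower, with a log2 ratio of -1.24. By the rough estimate of fragments these values correspond to about 1.17 and 10.5 fragments, with an estimated counting error of 1.41 on the log2 scale. The S100A12 call was lost with a pseudocount of 5, with a filter at 5 FPKM and at a 3-fold limit.

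Genes that often accompany S100A8 and S100A9 in inflamed epithelia were read as a list. Of 10 kept genes of that list 0 were called, 4 were above 0 and 6 below, and the median was -0.03. With 0.604% called higher and 0.668% lower over all genes, 0 is the background outcome for so few. SAA2 and SAA1, serum amyloid genes, were at 10.3 and 14.5 FPKM and at 48.7 and 59.7 FPKM, knockdown first. NFKBIZ, a regulator of the interleukin-17 response, was at 6.57 and 8.64 FPKM. LCN2, the iron-binding lipocalin, was at 82.4 and 73.5 FPKM, with a log2 ratio of 0.16.

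S100A10 and S100A11 are the partners of annexins. S100A10, which joins annexin A2 in a complex at the plasma membrane, was at 145 FPKM after knockdown and 161 FPKM with si-NC, a log2 ratio of -0.15. ANXA2 was at 54.9 and 59.4 FPKM, so that S100A10 stood at 2.65 and 2.71 times its level. AHNAK, a scaffold of that complex, was at 38.3 and 37.7 FPKM. S100A11, which binds annexin A1, was the second highest S100 gene, at 820 FPKM after knockdown and 870 FPKM with si-NC, with a log2 ratio of -0.09. ANXA1 was at 27.5 and 29.4 FPKM, and the level of S100A11 was 29.8 and 29.7 times that of ANXA1. Nothing is read from these proportions, since the log2 ratios of all genes at such levels spread little (SD 0.18 between 20 and 100 FPKM and 0.14 above, from the median absolute deviation).

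Among 10 kept annexins 0 were called, 3 were above 0 and 7 below, with a median of -0.03. Over all genes 0.604% were called higher and 0.668% lower, so 0 is the background outcome here. ANXA6 had the highest ratio, 0.72, at 6.64 FPKM after knockdown and 3.63 FPKM with si-NC. ANXA8 had the lowest, -0.48, at 14.7 and 20.8 FPKM. The next by size were ANXA4 at 4.70 and 3.54 FPKM and ANXA11 at 19.8 and 17.6 FPKM.

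S100A6, S100A4 and S100A2 lie in one stretch of the region and bind cytoskeletal or regulatory proteins. S100A4, linked to cell motility through non-muscle myosin, was at 89.4 FPKM after knockdown and 95.9 FPKM with si-NC, a log2 ratio of -0.10. Its target MYH9 was at 186 and 195 FPKM. S100A6, calcyclin, was at 304 and 301 FPKM; its log2 ratio of 0.02 became 0 under quantile normalization and -0.002 when rescaled without the 100 most abundant genes, and no direction is given for it. CACYBP, which binds S100A6, was at 53.7 and 57.0 FPKM. S100A2, an S100 protein of basal epithelial cells, was the lowest of the 10 members, at 7.04 and 6.85 FPKM, log2 ratio 0.03.

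Within the same stretch, S100A3, a hair cuticle protein outside the 10, was at 8.05 FPKM after knockdown and 15.2 FPKM with si-NC, with a log2 ratio of -0.84, the 115th lowest of 10925. Its exons share no base with those of S100A4, although S100A3 lies within the span of S100A4. S100A5, also outside the 10 and below the filter, was at 0.708 and 1.11 FPKM. S100P, which lies on chromosome 4 and binds ezrin, was at 4.61 and 3.36 FPKM, log2 ratio 0.36, and EZR was at 234 and 223 FPKM.

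**Figure D3:**
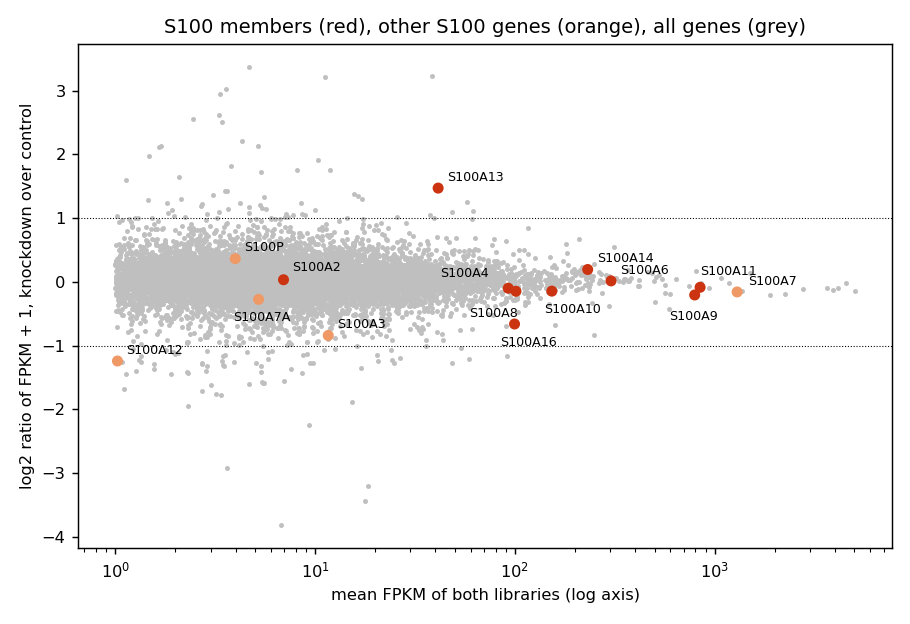
Log2 ratio of FPKM + 1, knockdown over control, against the mean FPKM of both libraries (log axis) for 10925 genes in grey, the 10 members in red and the other kept S100 genes in orange; dotted lines mark 2-fold. S100A13 lies above the upper line at a mean of 41.3 FPKM, S100A12 lies below the lower line at a mean of 1.02 FPKM, and the most abundant S100 genes lie near 0.

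By level, the members spanned from 6.85 to 870 FPKM in the control library and from 7.04 to 820 FPKM in the knockdown library. S100A7, S100A11, S100A9, S100A6, S100A14 and S100A10 held the first 6 places among S100 genes, in that order, in both libraries. S100A16 was 7th in the control library and 9th in the knockdown library, behind S100A8 and S100A4, and S100A13 was 10th in both. Without replicates, whether neighbours in this order differ beyond their spread is not known. Summed FPKM of the 10 members was 2585 after knockdown and 2752 with si-NC. All 17 S100 genes together held 1.79% and 1.94% of all FPKM, and S100A13 held 1.60% and 0.516% of that S100 sum.

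**Figure D4:**
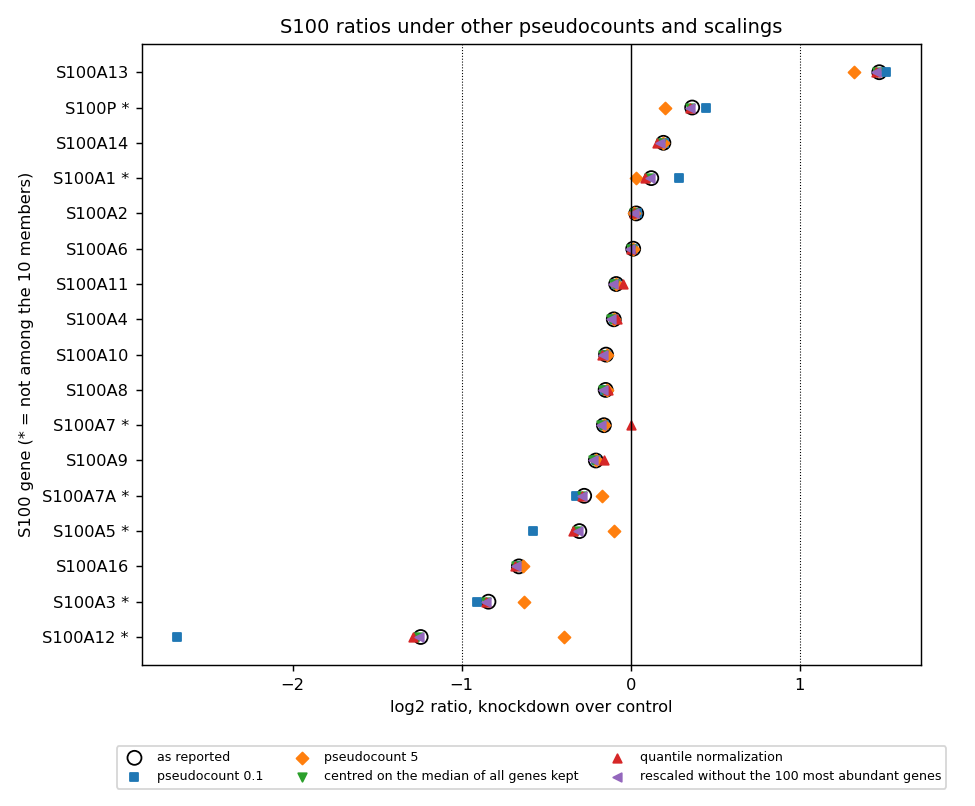
Log2 ratio, knockdown over control, of the 17 listed S100 genes as reported (open circles) and with a pseudocount of 0.1 or 5, centring, quantile normalization or rescaling without the 100 most abundant genes (filled symbols), with dotted lines at 2-fold. S100A13 stays between 1.33 and 1.51, while S100A12 ranges from -2.68 to -0.40.

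The partners and receptors known for S100 proteins were read as a list. Of 24 kept genes 0 were called, 7 were above 0 and 17 below, with a median of -0.07. At 0.604% called higher and 0.668% lower over all genes, 0 calls is the background outcome for this many genes. The adaptor gene GRB2 had the highest ratio, 0.84, at 30.1 FPKM after knockdown and 16.4 FPKM with si-NC. ERBB2, a receptor tyrosine kinase, was at 6.61 and 4.14 FPKM. For S100A13 itself, FGF1 was at 0.043 and 0.113 FPKM and IL1A was listed at 0 in both libraries.

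Fused-type S100 and cornified envelope genes, which share the region and combine S100 ends with long repeats or build the skin barrier, were mostly at low levels. Of 19 symbols looked for, an older and a newer one of loricrin among them, 5 were listed and 4 kept. All 4 had log2 ratios between -0.25 and -0.21, and 0 were called. Since 0.604% of all genes were called higher and 0.668% lower, 0 is the background outcome for so few genes. TCHH, trichohyalin, was at 16.9 FPKM after knockdown and 19.9 FPKM with si-NC. IVL, involucrin, was at 6.88 and 8.38 FPKM. PGLYRP4, a gene of the region read with this list though of neither class, was at 1.60 and 2.04 FPKM. TCHHL1, which also stands among the flanking genes, was at 0.854 and 1.15 FPKM.

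**Figure D5:**
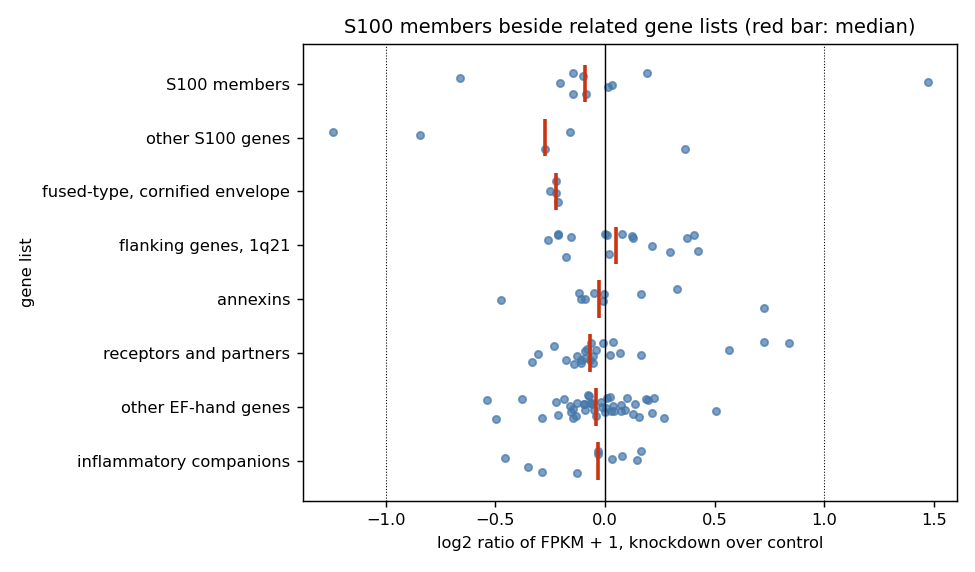
Log2 ratio of FPKM + 1, knockdown over control, of each kept gene (points, spread vertically only for display) in the S100 members and 7 related lists, with the list's median as a red bar and dotted lines at 2-fold. S100A13, at 1.47, and S100A12, at -1.24, are the points beyond the lines.

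The start regions of the members were compared through RefSeq promoter windows of GRCh38.p14, from 250 bases before to 50 after each annotated start; all 10 members matched, with 16 windows. The letters TATAAA, sought on both strands, were found in 4 of the 10 members. They were in 31.25% of the 16 windows, against 11.5% of 35116 windows of all genes. Of the members' 5 windows with a match, 2 are overlapping windows of S100A8 that hold the same site. Outside the 10, S100A7, S100A7A, S100A12 and S100P held the letters too, so they are not particular to the members. The sites of the 4 members are shown because these differ in ratio: S100A13 at 1.47, and S100A4, S100A8 and S100A9 at -0.10, -0.15 and -0.21. Of the 100 bases before those starts, annotated exons of any gene cover 93 in S100A13, 79 in S100A4, 100 in S100A8 and 0 in S100A9. Each line gives 30 bases on the gene's strand with the match in capitals.
S100A13, chr1:153627517-153627546, minus strand, 29 bases before the start: ttccccgctgctTATAAAcctcagccctga
S100A4, chr1:153545820-153545849, minus strand, 31 bases before the start: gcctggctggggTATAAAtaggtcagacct
S100A8, chr1:153391085-153391114, minus strand, 29 bases before the start: aagcctaaccgcTATAAAaaggagctgcct
S100A9, chr1:153357813-153357842, plus strand, 29 bases before the start: tcaggagctgccTATAAAtgccgagcctgc
In S100A13 the match belongs to the second of 3 annotated starts, and the files do not tell which start was used. The 3 S100A13 windows held 19, 11 and 12 CG dinucleotides, and those of S100A10 and S100A6 held 32 and 31, against a median of 14 over all windows. The windows of S100A14 and S100A16, the neighbours of S100A13, held 5 in the former and 3 and 8 in the latter. GGGCGG occurred in 6 members and 37.5% of their windows, against 45.0% of all windows, CCAAT in 3 members and TGANTCA in 1 member (S100A2). Both strands were searched, overlapping matches were kept, and a window counts once per motif. These matches are descriptions of the letters and were not related to the FPKM values by any test.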

How the data were processed

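RNA from 2 samples of the cell line labelled 468 was sequenced, 1 per group. The authors deposited 1 FPKM value per gene, as the column header states. Tools named in the submitters' processing notes are StringTie, HISAT2 2.0.5 and cutadapt, with the build hg19. Strandedness and gene annotation: not given in the sources used here. These values depend on the length used, which matters for short genes such as these, and on the few most abundant genes.

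Symbols other than a bare Ensembl identifier were found for 12746 of 13017 genes. Log2 ratios used a pseudocount of 1 FPKM, and genes averaging 1 FPKM or more were kept. With 1 library per group no test was run. Fragments were estimated from 902 genes with 1 annotated transcript. FPKM times length between 80 and 100, a window set after seeing the values, was taken as the value of 1 fragment (14 and 10 genes). The medians in that window were 89.7 (knockdown) and 91.4 (si-NC). As the window largely fixes these medians, all fragment numbers and counting errors depend on it and are rough. GENCODE 29 (GRCh38) was used by gene identifier for exons and transcripts. The members and lists were chosen with earlier results of these data known. Named were all S100 genes listed, the flanking genes, up to 4 largest ratios per other list and known partners of members. A few more genes, such as KRT19 and EPCAM, were named for their level. Python 3.11.15, numpy 2.4.6, pandas 2.3.3, Biopython 1.88 and matplotlib 3.10.9 were used. The log2 ratio with its call, the quantile normalization and the spread measure were tested on simulated data. The other computations were not.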

Additional observations from a re-analysis of the deposited data

How the results depend on the processing

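The log2 ratio of S100A13 stayed between 1.33 and 1.51 over 5 other pseudocounts and scalings, and its excess over each other S100 gene between 1.06 and 4.19. The upper end was against S100A12 at a pseudocount of 0.1, and S100A12 rests on an estimated 1.17 fragments after knockdown. At a 3-fold limit 0 members and 0 S100 genes were higher and 0 S100 genes lower. At 1.5-fold 1 member, S100A16, and 3 S100 genes were lower. With a pseudocount or a filter of 5 FPKM, 0 S100 genes were lower. The 66 higher and 73 lower genes among all were 140 and 126 at a pseudocount of 0.1, 19 and 14 at 5, 31 and 36 under a filter of 5 FPKM, 326 and 269 at 1.5-fold and 20 and 15 at 3-fold; stricter limits take fewer genes by construction. S100A6 was at -0.002 when rescaled without the 100 most abundant genes, and S100A6 and S100A7 were at 0 under quantile normalization. Of 1095 other values, 1059 stayed within a limit and 36 moved beyond it. The limit was the spread of genes at their level, for list medians the spread of all kept genes, and for counts 1.5 times. List medians hardly move that far, and counts that stayed at 0 were taken as unchanged, so little is read from the 1059. No paired analysis was possible because each group has 1 library. Depth limits S100A12, S100A5 and S100A1 most.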

Other observations

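Other EF-hand genes, which encode calcium-binding proteins outside the S100 family, were described in the same way. Of 45 kept genes, 0 were at least 2-fold apart, 19 were above 0 and 26 below, and the median log2 ratio was -0.04. The shares over all genes were 0.604% higher and 0.668% lower, so 0 is near the background for this list. CALU, a calcium-binding protein of the secretory pathway, had the lowest ratio, -0.54, at 34.8 FPKM in the knockdown library and 51.0 FPKM in the control library. EFCAB14 was at 19.0 and 27.3 FPKM, and HPCAL1, a neuronal calcium sensor relative, at 4.33 and 5.93 FPKM. TBC1D9 had the highest ratio, 0.51, at 6.07 and 3.97 FPKM. MYL12B, a myosin light chain, was the most abundant gene of the list, at 370 and 368 FPKM.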
